A study of Homo sapiens with 8 samples.

Results

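A pair of control states of one human cell line were set against each other, and 4 of the 8 libraries of a ribosome profiling series belong to them. They were chosen by their titles: the libraries titled Scr1 and Scr2, labelled as the control for an shRNA, and those titled NC control1 and NC control2, labelled as the control for miRNA inhibitors. All 8 libraries came from 293T, a line derived from human embryonic kidney that carries the SV40 large T antigen, grown in high-glucose DMEM with serum and antibiotics. Lysis of every group was done with cycloheximide in the polysome buffer, an agent that halts cytosolic ribosomes on their messages. The other 4 libraries carried a non-cleaving shRNA (shNBD1) or miRNA inhibitors, with 2 libraries each. They serve below as a second measurement of the same pair of arms. They also enter the filter, the scaling and the spread of the fit that compares the controls. The labels do not give the sequence or the delivery of either control reagent, the stock of cells or the days of the experiments. Reagent, stock and batch therefore cannot be told apart in what follows, and no difference can be assigned to one of them.

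In ribosome profiling, nuclease digests the RNA that ribosomes do not cover, and the surviving fragments, called footprints, are sequenced and counted per gene. A footprint count depends both on how much mRNA a gene has and on how densely ribosomes occupy it, and no matched RNA libraries were used here. The line 293T is transformed and aneuploid.

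The shRNA control libraries held 14806820 and 12060938 counts, those of the inhibitor control 19050037 and 19854218. Levels are given below as CPM, counts scaled to a library of fixed size, after scaling of library sizes, for library 1 and then library 2 of a group. Fold changes are the shRNA control over the inhibitor control on the log2 scale, with the SE implied by the test, and a gene is called when its adjusted p in edgeR's quasi-likelihood test is under 0.05. The replicates of the shRNA control lay closer to each other than those of the inhibitor control, with a median absolute log2 difference of 0.0694 against 0.14. Inhibitor control library 1 and miRNA inhibitor library 2 had the most distant scores on principal component 3 (9.63% of the variance), and component 1 (56.1%) separated the arms. The labels do not state whether replicates are separate cultures, and if they are not, the p-values describe technical spread alone. Of 8 measured markers of 293T cells, 2 were called, both lower (LIN28B and CDH2), and 2 of the 8 fold changes were above 0. Over the alternative fits the log2 fold changes ran from -0.94 to -0.70 for LIN28B and from -0.29 to -0.17 for CDH2. The summed level of the 8 was 5465 and 5500 CPM against 4896 and 5902. Most of that sum was VIM, the intermediate filament vimentin, at 3541 and 3588 CPM against 3063 and 3571. The 16 tested markers of other cell types summed to 548 and 573 CPM against 689 and 704. ACTA2 of smooth muscle, with values given below, held most of this sum and fell by more than the sum did. The sum therefore does not give the direction of the rest, and 7 of the 16 fold changes were above 0. Of the 16, 3 were called higher (CD68, KDR of endothelium and EPCAM of epithelium) and 2 lower (CD14 of monocytes and ACTA2). The 2 became 1 without either shRNA control library and 3 without inhibitor control library 1, and the 3 became 5 without inhibitor control library 2. Another 9 of those 25 markers, among them PTPRC of leukocytes, CDH5 of endothelium, ALB of liver and MYOD1 of muscle, had too few counts to be tested. In pooled RNA a smaller number of cells and less RNA per cell cannot be told apart.

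The NBD1 reporter, a row of that name in the files, stood at 9129 and 9082 CPM in the shRNA control against 8339 and 7954 in the inhibitor control. The groups did not overlap, and the log2 fold change of the NBD1reporter row was 0.16 ± 0.07 with an adjusted p of 0.0928. Features named ZNF354B and ST8SIA1 together took 5.99% and 6.18% of the counts in the shRNA control and 8.80% and 9.99% in the inhibitor control, and genes of the MTRNR2L family 0.862% and 0.898% against 1.83% and 1.5%. With all of these left out before scaling, 1797 genes were higher and 1802 lower.

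Between the controls 3611 of 13306 tested genes were called (27.1%), 1800 of them higher in the shRNA control (13.5%) and 1811 lower (13.6%). The libraries of the groups did not overlap for 67.1% of all tested genes, so separation alone sets no gene apart. Most differences were small, with a median fold of 1.40 among called genes, but the large ones were mostly on one side. At least 2-fold higher were 130 genes (0.977% of those tested) and at least 2-fold lower 490 (3.68%). At 4-fold the counts were 38 (0.286%) and 165 (1.24%). Without shRNA control library 1, 509 were higher and 568 lower, and without its library 2, 608 and 659. Without inhibitor control library 1 and miRNA inhibitor library 2 they were 2823 and 2850, but that fit has 1 library in each group of the inhibitor arm and takes all its spread from the shRNA arm, whose replicates differ less, so the higher counts say nothing about stability. The 43 leading genes, those of smallest p or largest fold by the rule for naming genes, kept their call in every alternative in which they were tested. The plot of change against level shows the long lower side at low counts.

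**Figure D1:**
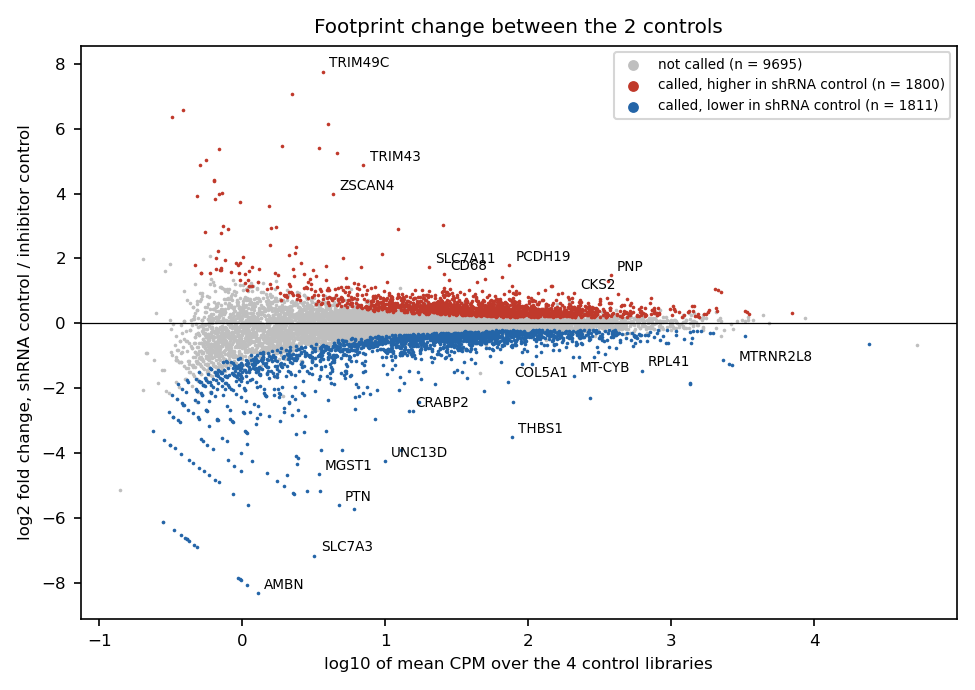
Each point is 1 of the 13306 tested genes, with the log10 of its mean CPM over the 4 control libraries on the horizontal axis and the log2 fold change of the shRNA control over the inhibitor control on the vertical axis. The 1800 genes called higher are red and the 1811 called lower blue, and the large changes at low level lie mostly below 0.

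The sharpest single programme on the higher side was that of DUX4, a homeobox factor of the cleavage-stage embryo whose targets are silent in most somatic cells. ZSCAN4, a zinc-finger gene of early embryos (chromosome 19, 57651476 to 57679152, GRCh38), stood at 9.10 and 7.20 CPM in the shRNA control and at 0.358 and 0.664 in the inhibitor control. TRIM43, a cleavage-stage gene of the tripartite motif family (chromosome 2, 95592001 to 95599778), stood at 14.3 and 12.9 against 0.358 and 0.562 CPM. Both shRNA control libraries were far above both inhibitor control libraries for ZSCAN4 and TRIM43, with log2 fold changes of 3.98 ± 0.35 and 4.87 ± 0.31 and adjusted p-values of 6.97e-05 and 1.14e-05 (edgeR).

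The whole list is given by its counts. Of 20 entries on the list of DUX4 targets 19 were in the files, and these summed to 843 and 641 raw counts in the shRNA control against 129 and 166 in the deeper libraries of the inhibitor control. As CPM, 16 of the 19 were higher in both shRNA control libraries, and 3 had no count in the inhibitor control, of which ZNF705A had none in the shRNA control either. CCNA1, a cyclin of the germ line, had the smallest fold change of the tested members (0.76 ± 0.20), with 112 and 103 counts against 78 and 105. Of the 13 members that passed the filter on low counts each was called higher, but a member could pass through the shRNA control alone, so this number supports nothing by itself, and 2 remained tested at a mean of at least 50 counts. LEUTX, DUXA, RFPL1, RFPL2, TPRX1 and ZNF705A did not pass. PRAMEF2, of a family of embryonic genes in near-identical copies, had 21 counts against 0, at least 10.05-fold higher against a floor of 3 counts over the group. MBD3L2 had 30 counts against 1, a ratio of 43.1 with a 95% counting interval from 7.16 to 1757. Intervals and floors here cover counting error only.

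Genes of the TRIM49 and RFPL4 families, which the list holds only in part, were among the largest changes on the higher side. TRIM49C had 105 and 93 counts in the shRNA control and 0 and 1 in the inhibitor control, a ratio of 284.2 (50.4 to 11280). TRIM49D1 had 144 and 102 against 5 and 4, TRIM49B 105 and 80 against 4 and 2, and RFPL4B 70 and 52 against 1 and 0. The members of each family are near-identical copies, so how reads split between them is uncertain and they are not independent of one another. The treated libraries of the arms, which share no library with the controls, held 382 and 406 counts of the listed targets with shNBD1 and 106 and 130 with the miRNA inhibitors. For TRIM49C the change of the difference between the arms was called (adjusted p = 0.00875, edgeR), but its size rests on 1 count in the inhibitor control and is not given, while for ZSCAN4 the adjusted p of that change was 0.0508.

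Outside this programme the clearest gene was PNP, the phosphorylase of purine salvage (chromosome 14, 20469406 to 20477089). It stood at 558 and 556 CPM in the shRNA control and at 202 and 198 in the inhibitor control. The PNP libraries of each group were within a few CPM of each other, the log2 fold change was 1.48 ± 0.06 and the adjusted p 1.78e-06, shared with 1 other gene as the smallest of the comparison. PCDH19, a protocadherin of neuronal adhesion on the X chromosome, stood at 114 and 115 CPM against 32.0 and 34.0, a log2 fold change of 1.79 ± 0.08. CD68, a lysosomal membrane protein and a marker of macrophages, stood at 38.0 and 38.5 against 11.7 and 15.1 CPM (1.51 ± 0.13), while the leukocyte marker PTPRC had no count in either shRNA control library. CD14, another marker of monocytes and macrophages, went the other way, with 1 count in the shRNA control against 21, a ratio of 14.6 (2.35 to 605.0) in favour of the inhibitor control. The call of CD14 was lost in DESeq2 and without either shRNA control library, whereas CD68 kept its call in every alternative. RBBP6, a ubiquitin ligase, EIF3J, a subunit of an initiation factor, VKORC1, which recycles vitamin K, and SLC38A1, a glutamine carrier, were each higher by 0.93 to 1.02 on the log2 scale. MRPL53, of the mitochondrial ribosome, was higher by 1.16 ± 0.10 and CSNK1A1L, a retrocopy of casein kinase 1 alpha, by 1.33 ± 0.11. At lower level ABCA13, a lipid transporter, and HES7, a repressor of the segmentation clock, were higher by 3.02 ± 0.38 and 2.91 ± 0.29.

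**Figure D2:**
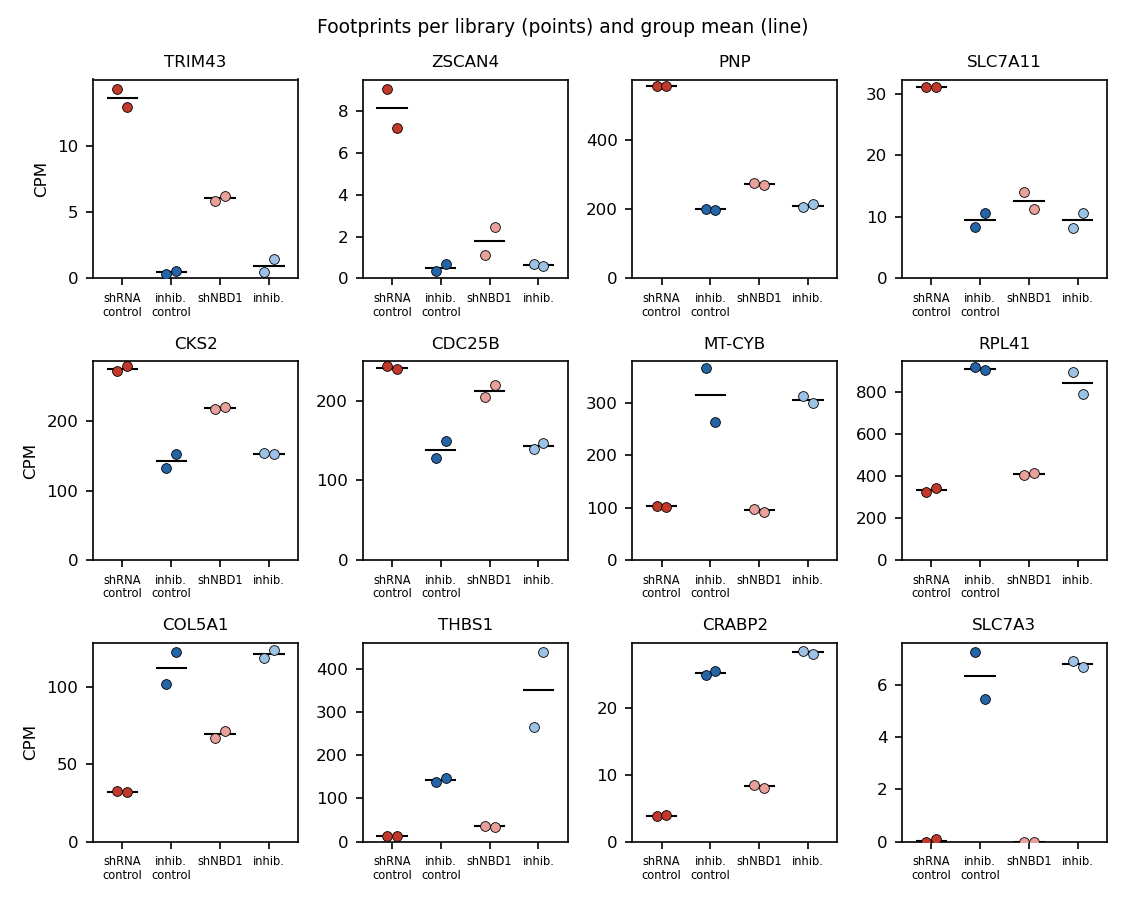
CPM of 12 genes (vertical axes, each from 0) in the 2 libraries of each of the 4 groups (horizontal axis; inhib. stands for miRNA inhibitors), with points for libraries and a line for the group mean. In all 12 genes the 2 shRNA control libraries lie on one side of the 2 inhibitor control libraries. For PNP, SLC7A11, ZSCAN4 and TRIM43 the shNBD1 libraries lie nearer to the inhibitor arm.

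Targets of ATF4 were mostly higher. ATF4 is the transcription factor whose own translation increases when the initiation factor eIF2 is phosphorylated, and it drives genes of amino acid supply in the integrated stress response. Of 27 tested targets 18 were higher and 1 lower, with a median log2 fold change of 0.44 against -0.00 over all tested genes. That is 70.4% called, against 27.1% of all tested genes. SLC7A11, the cystine carrier, stood at 31.2 and 31.1 CPM against 8.28 and 10.6, and ASNS, asparagine synthetase, at 208 and 212 against 107 and 117. Both genes were well separated, with log2 fold changes of 1.72 ± 0.15 for SLC7A11 (adjusted p = 6.97e-05) and 0.90 ± 0.08 for ASNS (8.04e-05), and both kept their call in every alternative. ATF4 itself stood at 163 and 157 against 104 and 133 CPM (0.44, adjusted p = 0.027).

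Other members covered serine synthesis (PHGDH at 0.32, PSAT1 at 0.41), one-carbon metabolism (SHMT2 at 0.43, MTHFD2 at 0.35) and proline synthesis (PYCR1 at 0.68). STC2, a secreted glycoprotein, was higher by 1.02 ± 0.23, but its adjusted p was 0.0663 without shRNA control library 1 and 0.0516 without library 2. ATF3, a stress-induced factor, went the other way, at 17.9 and 15.4 against 33.3 and 32.2 CPM (-0.97 ± 0.19), with an adjusted p of 0.0532 without shRNA control library 2. The count of 18 higher targets was 5 without either shRNA control library, 12 without inhibitor control library 1 and 22 without its library 2, while the median stayed between 0.33 and 0.62 over the alternatives. In the treated libraries 10 of 27 targets were higher and none lower, against 15.9% and 16.5% of all tested genes, with a median of 0.26. For SLC7A11 the treated difference was 0.44 (adjusted p = 0.07), and the change from the controls was called (adjusted p = 0.01).

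Of the 20 aminoacyl-tRNA synthetases of the cytosol, which load amino acids onto tRNAs and are partly ATF4 targets, 10 were higher and 1 lower. That is 55.0% called, against 27.1% of all tested genes, and the median was 0.23. GARS1 (glycine) stood at 278 and 271 against 176 and 193 CPM, and EPRS1 (glutamate and proline) at 430.2 and 442.5 against 311 and 321. The groups did not overlap for either, and the log2 fold changes were 0.57 ± 0.07 for GARS1 and 0.47 ± 0.06 for EPRS1. The count of 10 was 2 without shRNA control library 1 and 4 without library 2. Among 42 translation factors 11 were higher and 3 lower, with a median of 0.14 that was 0.06 without inhibitor control library 1, and 3 were higher without either shRNA control library. The scanning factors EIF1 and EIF5 led after EIF3J, at 0.67 ± 0.06 and 0.62 ± 0.07. EIF1 stood at 280.4 and 272.3 against 175 and 173 CPM. Of the translation factors 33.3% were called, against 27.1% of all tested genes.

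Chaperones of the heat-shock response were split, with 6 higher and 6 lower of 24 (3 lower without either shRNA control library). HSPA1A, the inducible HSP70, stood at 2815 and 2874 CPM against 1199.7 and 1601, a log2 fold change of 1.02 ± 0.13, and its near-identical neighbour HSPA1B, whose reads cannot be fully separated from it, gave 0.98 ± 0.13. CRYAB, a small heat-shock protein, had 3 counts in the shRNA control against 73, a ratio of 17.0 (5.58 to 84.1) in favour of the inhibitor control. SERPINH1, the collagen chaperone HSP47, was lower by 0.63 ± 0.09, at 188 and 188 against 273 and 311 CPM. In the unfolded protein response of the endoplasmic reticulum 7 of 21 genes were higher and 2 lower, among the former CRELD2 at 0.42 ± 0.08. Without shRNA control library 1 the 7 became 2, without library 2 they became 1, and without either the 2 became 0.

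Genes of mitosis formed the second broad group on the higher side. They are transcribed late in the cell cycle, and many carry in their promoters a short element, the cell cycle genes homology region (CHR), through which the DREAM and MYB-MuvB complexes act. The median over the 30 tested was 0.33, and 29 of the 30 fold changes were above 0. Of the 30, 17 were called higher (56.7%, against 13.5% of all tested genes) and none lower. The count was 12 without either shRNA control library, 17 without inhibitor control library 1 and 20 without its library 2.

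CKS2, which binds cyclin-dependent kinases, stood at 272.3 and 279 CPM in the shRNA control against 133 and 153. CDC25B, the phosphatase that starts mitotic entry, stood at 244 and 239.7 against 128 and 149.8. KIF11, the kinesin that separates spindle poles, stood at 310.2 and 318 against 218 and 212 CPM. The groups lay apart in all of these genes, with log2 fold changes of 0.95 ± 0.08 for CKS2 (adjusted p = 4.37e-05), 0.80 ± 0.08 for CDC25B and 0.55 ± 0.09 for KIF11. CDK1, the mitotic kinase, was higher by 0.53 ± 0.09, CENPE, a kinetochore motor, by 0.59 ± 0.09 and CCNA2, cyclin A, by 0.57 ± 0.08. Several central members were not called, among them CCNB1 at 0.17 (adjusted p = 0.182), PLK1 at 0.16 (0.248), AURKB at 0.04 (0.78), CDC20 at 0.02 (0.869) and BIRC5 at 0.06 (0.766). In the treated libraries 9 of the 30 mitotic genes were higher and 1 lower (median 0.16), against 15.9% and 16.5% of all tested genes. For 6 of the 30 the difference between the arms changed, against 7.44% of all tested genes. CENPE and CCNA2 were among these 6, with treated differences of 0.06 and -0.04.

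The CHR was searched as TTTGAA or TTCGAA on either strand, so that TTCAAA also marks a match, in the 250 bases before the start that each promoter entry gives (RefSeq, GRCh38.p14). Of the mitotic genes 24 had a promoter entry, and 14 of these held a match in any of their entries. Of all 35116 promoter entries, counted singly, 14.3% held a match. A gene can have several entries, so the share of genes and the share of entries are unlike measures. Among the genes called higher 8 of 13 had a match and among the others 6 of 11, so its presence did not separate the members that differed. The 80 bases before the start are shown for the 4 called members of largest fold among those 8, with the element in capitals, because they let the element's place be read beside the change. A match is a description of the letters and not of binding.
CKS2 (chr9:89311115-89311194, + strand): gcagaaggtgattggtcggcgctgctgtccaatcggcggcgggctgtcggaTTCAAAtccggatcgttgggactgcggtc
CDC25B (chr20:3796230-3796309, + strand): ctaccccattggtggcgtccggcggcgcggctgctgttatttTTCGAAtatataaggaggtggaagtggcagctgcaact
KIF11 (chr10:92593050-92593129, + strand): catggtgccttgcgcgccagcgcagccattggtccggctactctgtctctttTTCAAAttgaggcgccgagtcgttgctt
CDK1 (chr10:60778398-60778477, + strand): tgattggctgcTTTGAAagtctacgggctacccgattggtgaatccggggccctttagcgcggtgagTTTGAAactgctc

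For ATF4 the letters searched were TGATGNAA, the C/EBP-ATF response element, on either strand of the same 250 bases. Of 21 targets with an entry 3 held it in any of their entries. Of all promoter entries, counted singly, 3.14% held it, again an unlike measure. Among the 3 targets was ATF3, which was called lower, and the other 2 were among the 14 called higher. Those 2 are shown with the element in capitals, as 80 bases around it that end before the start: the first base of the element lies 68 bases upstream of the start in ASNS and 97 in SLC1A5. SLC1A5, a glutamine carrier, stood at 650 and 631 against 374 and 527 CPM (0.51 ± 0.14, adjusted p = 0.0249), a call that was lost without either shRNA control library (0.133 and 0.102) and without inhibitor control library 1 (0.0864).
ASNS (chr7:97872437-97872516, - strand): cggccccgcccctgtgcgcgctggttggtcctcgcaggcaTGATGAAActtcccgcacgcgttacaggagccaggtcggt
SLC1A5 (chr19:46784872-46784951, - strand): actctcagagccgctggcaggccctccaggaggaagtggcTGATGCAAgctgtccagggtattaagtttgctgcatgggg

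DNA replication genes, which act earlier in the cycle than the mitotic ones, held 10 higher and 3 lower of 39. That is 33.3% called, against 27.1% of all tested genes, and the median was 0.06. RRM2, the regulated subunit of ribonucleotide reductase, stood at 932 and 891 against 528 and 539 CPM (0.77 ± 0.07), while FEN1, the flap nuclease, was lower by 0.66 ± 0.07. Without shRNA control library 1 or 2 the 10 became 4 or 5. Replication-dependent histones were split, with 7 higher and 6 lower of 39 (33.3% called). The 7 became 3 without either shRNA control library and 12 without inhibitor control library 2, and the 6 became 2 or 3 without shRNA control library 1 or 2 and 11 without inhibitor control library 1. Of these, H1-3, a linker histone, stood at 236 and 238 against 469 and 436 CPM (-0.93 ± 0.08), whereas H1-5 was higher by 0.89 ± 0.13.

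On the lower side the most uniform group was the set of 13 proteins encoded in mitochondrial DNA, all subunits of oxidative phosphorylation made by mitochondrial ribosomes, which cycloheximide does not halt. Of them 12 were lower (92.3%, against 13.6% of all tested genes) and none higher, with a median log2 fold change of -0.80. MT-CYB, cytochrome b of complex III, stood at 103 and 102 CPM against 366 and 262, and MT-ND5, of complex I, at 181 and 201 against 415.5 and 361. Both groups lay apart, with log2 fold changes of -1.62 ± 0.13 for MT-CYB (adjusted p = 3.6e-05) and -1.02 for MT-ND5 (5.35e-05). MT-ATP8 and MT-ND6 followed at -1.67 ± 0.17 and -1.51 ± 0.24. MT-CO1, of complex IV, was the member not called, at 274 and 279 against 340.2 and 303 CPM (-0.22, adjusted p = 0.077). Between 9 and 13 members were called lower without each control library in turn, and 12 were lower in the treated libraries too (median -1.13). The nuclear genes of the same complexes showed no such side, with 12 higher and 10 lower of 59 (37.3% called) and a median of 0.05. Mitochondrial ribosomal proteins held 16 higher and 14 lower of 77 (39.0% called, against 27.1% of all tested genes). Without either shRNA control library these counts were lower, at 6 and 3 to 4 for the first list and at 5 to 9 and 4 to 5 for the second; without inhibitor control library 1 the second held 9 higher, and without its library 2 it held 6 lower. MTRNR2L8 and MTRNR2L1, nuclear near-copies of the mitochondrial 16S rRNA gene that reads from that rRNA can also match, were both called lower. MTRNR2L8 stood at 1501 and 1602 against 4015 and 3561 CPM (-1.29 ± 0.08).

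Genes of the extracellular matrix were lower in 20 of 39 cases and higher in 6, with a median of -0.29. That is 66.7% called, against 27.1% of all tested genes. THBS1, the matrix glycoprotein thrombospondin 1 (chromosome 15, 39581079 to 39599466), stood at 13.2 and 11.9 CPM in the shRNA control against 138 and 146. COL5A1, a chain of fibrillar collagen V, stood at 32.8 and 31.8 against 102 and 122, and its partner COL5A2 at 2.72 and 2.95 against 13.4 and 12.3. All were far below in both shRNA control libraries, with log2 fold changes of -3.50 ± 0.21 for THBS1, -1.79 ± 0.10 for COL5A1 and -2.18 ± 0.15 for COL5A2. The fibronectin gene FN1 was lower by 0.62 ± 0.07, at 1079 and 1102 against 1612 and 1735 CPM. The proteoglycan BGN and the thrombospondin THBS2 were near absent from the shRNA control. THBS2 had 3 counts there against 149, a ratio of 34.6 (11.6 to 169.7) in favour of the inhibitor control. SPARC, a collagen-binding glycoprotein, was higher instead, at 501 and 488 against 369.6 and 391 CPM (0.38 ± 0.06).

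The matrix list did not keep its side with treatment. In the treated libraries 16 of 39 matrix genes were higher and 9 lower (median 0.24), against 15.9% and 16.5% of all tested genes. For 15 of 39 the change of the difference was called, against 7.44% of all tested genes. COL12A1, a collagen that binds fibril surfaces, stood at 65.1 and 61.6 against 116 and 184 CPM in the controls (-1.24 ± 0.18), and its treated difference was 0.81. Without either shRNA control library 8 matrix genes were lower and 1 higher.

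**Figure D3:**
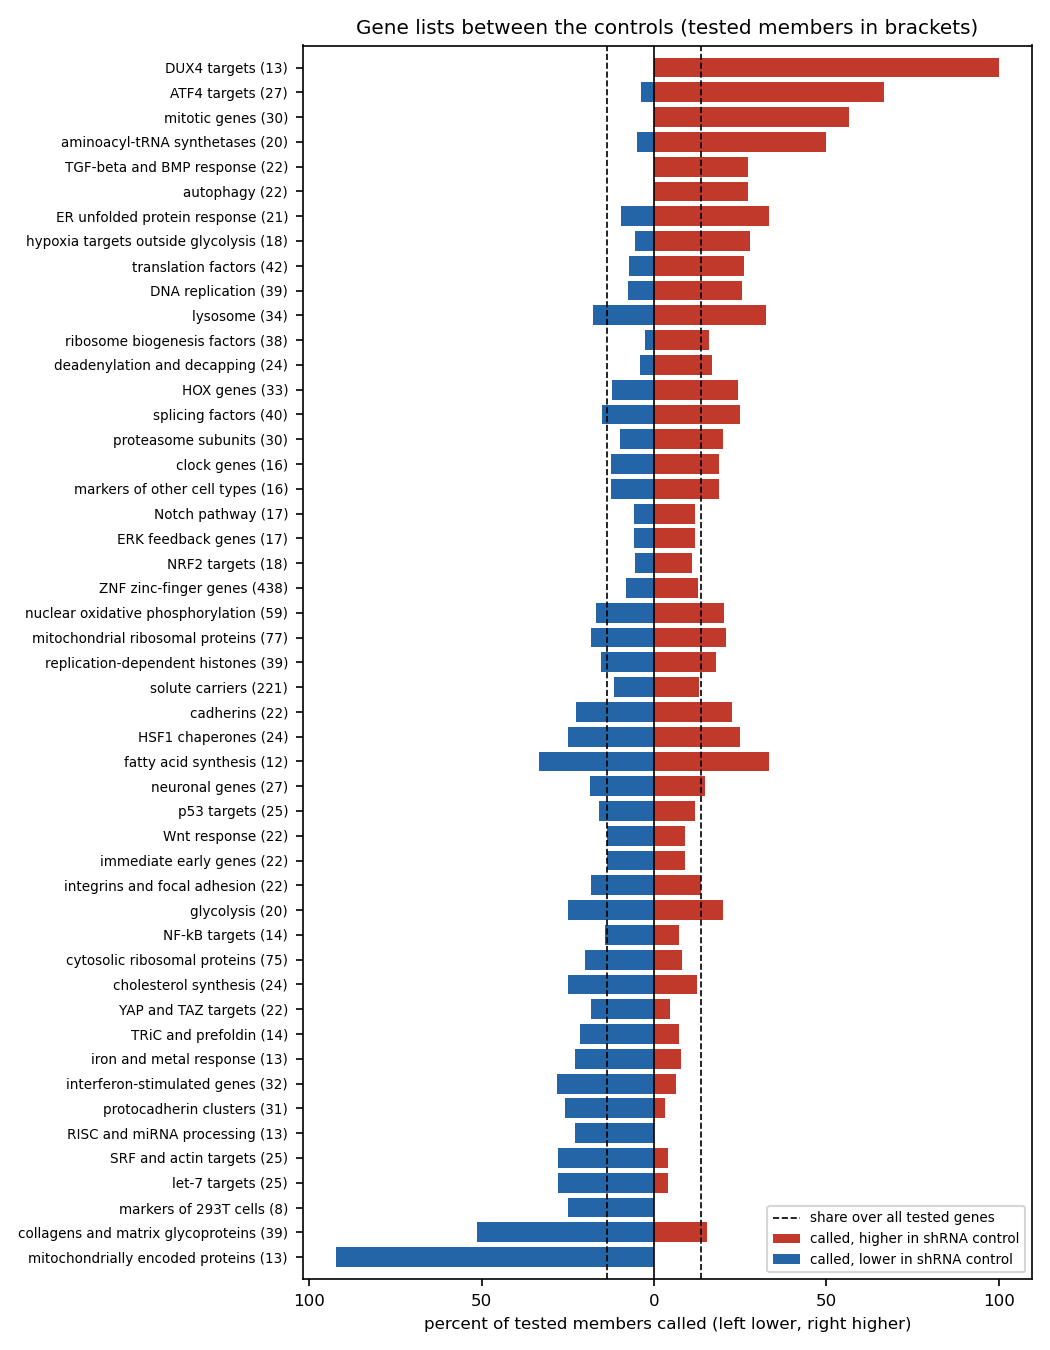
For each of 49 gene lists the bars give the percent of tested members called higher (red, to the right) and lower (blue, to the left) in the shRNA control, with the number of tested members in brackets. The dashed lines mark 13.5% and 13.6%, the shares over all 13306 tested genes. DUX4 targets stand first and mitochondrially encoded proteins last, and the DUX4 bar covers only the 13 members that passed the filter on low counts.

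The gene of smallest p on the lower side was CRABP2, which carries retinoic acid to its receptor (chromosome 1, 156699606 to 156705784). It stood at 3.79 and 4.01 CPM in the shRNA control against 24.9 and 25.5, a log2 fold change of -2.70 ± 0.12 with an adjusted p of 1.78e-06. RPL41, the shortest protein of the cytosolic ribosome, stood at 325 and 341 against 919.7 and 906 CPM (-1.45 ± 0.07). The other ribosomal proteins did not share its size of change. Of all 75 tested, with RPL41 among them, 6 were higher and 15 lower. That is 28.0% called, near the 27.1% of all tested genes. The median was -0.07, and 0.03 without inhibitor control library 2. Without shRNA control library 1 or 2 the counts were 2 higher and 4 or 7 lower, and without inhibitor control library 1 or 2 they were 3 or 15 higher and 19 or 10 lower. SOX11, a transcription factor of neural progenitors, stood at 16.7 and 17.4 against 43.2 and 49.0 CPM (-1.43 ± 0.10).

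Many of the leading genes on this side had nearly no footprints in the shRNA control. MGST1, a microsomal glutathione transferase, stood at 0.266 and 0.246 CPM against 6.24 and 6.94 (-4.64 ± 0.28). UNC13D, a priming factor of exocytosis, stood at 1.13 and 0.818 against 18.2 and 19.7 (-4.25 ± 0.26), and CAPN6, a calpain without protease activity, at 0.199 and 0.164 against 7.26 and 6.33 (-5.15 ± 0.33). SLC7A3, a carrier of cationic amino acids on the X chromosome, had 1 count in the shRNA control and 249 in the inhibitor control, a ratio of 173.5 (30.9 to 6879). AMBN, ameloblastin of tooth enamel, had 0 against 101, at least 23.45-fold lower in the shRNA control.

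Further leading genes on the lower side follow. PTN, the growth factor pleiotrophin, stood at 0.266 and 0.0819 against 10.2 and 8.37 CPM (-5.60 ± 0.41). CHRDL1, an antagonist of bone morphogenetic proteins, FOLH1, a surface folate hydrolase, and CPXM1, a carboxypeptidase-like protein, had 3 counts each in the shRNA control against 176, 172 and 134. F10, coagulation factor X, SERPINB2, an inhibitor of plasminogen activators, and EFEMP2, fibulin-4 of elastic fibres, were lower by 5.17, 5.71 and 3.32 on the log2 scale in the fit. Over the alternatives the fitted values ran from -9.41 to -4.35 for F10 and from -6.17 to -5.03 for SERPINB2, so their size is uncertain. For EFEMP2 they ran from -3.42 to -3.26. FOLR1, the alpha folate receptor, was lower by 2.63 ± 0.18 and TRO, the adhesion protein trophinin, by 1.71 ± 0.11. With shNBD1, SLC7A3 and AMBN had no count in either library, and MGST1 stood at 0.213 and 0.204 CPM there against 10.9 and 11.4 with the miRNA inhibitors.

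Signalling programmes differed less as groups. Interferon-stimulated genes held 2 higher and 9 lower of 32 (34.4% called, against 27.1% of all tested genes). Their median was -0.33, and -0.11 once genes averaging under 50 counts were left out. Of these, IFITM3, which blocks viral entry, stood at 12.9 and 12.9 against 28.8 and 30.7 CPM (-1.20 ± 0.13), whereas BST2, tetherin, was higher by 1.06 ± 0.18. Without shRNA control library 1 or 2 the 9 became 3 or 4. Targets of SRF, a transcription factor, held 1 higher and 7 lower of 25 (32.0% called). Among them ACTA2, smooth muscle actin, stood at 291 and 320.4 against 532 and 502 CPM (-0.76 ± 0.07), and CNN1, calponin, changed by -2.34 ± 0.29. The 7 became 11 without inhibitor control library 1, and 3 or 4 without shRNA control library 1 or 2. Another SRF target, TAGLN, stood at 1.73 and 1.47 against 7.62 and 41.0 CPM, and its call was lost without either shRNA control library (adjusted p = 0.0635 and 0.0557). In the treated libraries 6 of the 25 SRF targets were higher and 1 lower, against 15.9% and 16.5% of all tested genes.

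Let-7 targets held 1 higher and 7 lower of 25, 4 and 3 lower without shRNA control library 1 and 2, and a median of 0.00. CCND1, cyclin D1, led them after THBS1, at 4.71 and 6.22 against 23.1 and 34.8 CPM (-2.42 ± 0.33). Of 13 genes of RISC, which carries small RNAs, and of miRNA processing, 3 were lower by 0.35 to 0.40 (TNRC6A, TNRC6C and AGO1) and none higher, and each of these calls was lost without shRNA control library 1. Responses to TGF-beta and BMP held 6 higher and none lower of 22, led by ID3, an inhibitor of helix-loop-helix factors, at 78.4 and 79.97 against 46.3 and 56.4 CPM (0.62 ± 0.10), but the 6 became 2 without either shRNA control library. Targets of p53, which large T antigen holds inactive in this line, held 3 higher and 4 lower of 25 (1 lower without either shRNA control library, 8 without inhibitor control library 2). Among them GDF15, a stress cytokine, was higher by 1.77 ± 0.20. PMAIP1, the BH3-only protein NOXA, was higher by 1.31 ± 0.13, at 515 and 508 against 187 and 226 CPM. PLK3 and BTG2 were called lower, with fitted values from -1.21 to -1.12 and from -0.84 to -0.73 over the alternatives. In the treated libraries 2 of the 25 p53 targets were higher and 10 lower (median -0.355), against 15.9% and 16.5% of all tested genes. In the let-7 list 32.0% of tested members were called and in the list of RISC and miRNA processing 23.1%. For TGF-beta and BMP responses the share was 27.3% and for p53 targets 28.0%, against 27.1% of all tested genes. Between the controls the counts in these lists thus lay near the share over all genes.

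The differences also followed chromosomes. Of 502 tested genes on chromosome 9, 210 were lower and 9 higher, and 85.7% of the fold changes lay below 0, with a median of -0.33. On chromosome 11, 233 of 740 were lower and 30 higher, 74.6% lay below 0 and the median was -0.24. Together the 2 chromosomes held 9.33% of the tested genes, 24.5% of the lower calls and 2.17% of the higher calls. Chromosomes 13 and 10 had the highest medians, 0.17 and 0.14, with 61 higher and 11 lower of 221 genes on the first and 123 and 25 of 505 on the second.

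These medians separated the libraries by arm. Relative to the mean of all 8 libraries, the median log2 level of chromosome 9 was -0.16 and -0.15 (shRNA control), -0.13 and -0.14 (shNBD1), 0.19 and 0.14 (inhibitor control), 0.16 and 0.12 (miRNA inhibitors). For chromosome 11 the values were -0.15 and -0.14, -0.12 and -0.12, 0.06 and 0.08, and 0.16 and 0.24 in the same order. In runs of 20 neighbouring tested genes, 25 of 25 runs on chromosome 9 had a median below 0 between the controls and again between the treated libraries, and on chromosome 11 the counts were 35 and 37 of 37. CKS2 lies on chromosome 9 and was higher against that shift. No DNA copy number was measured here, so its part in these shifts was not tested.

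**Figure D4:**
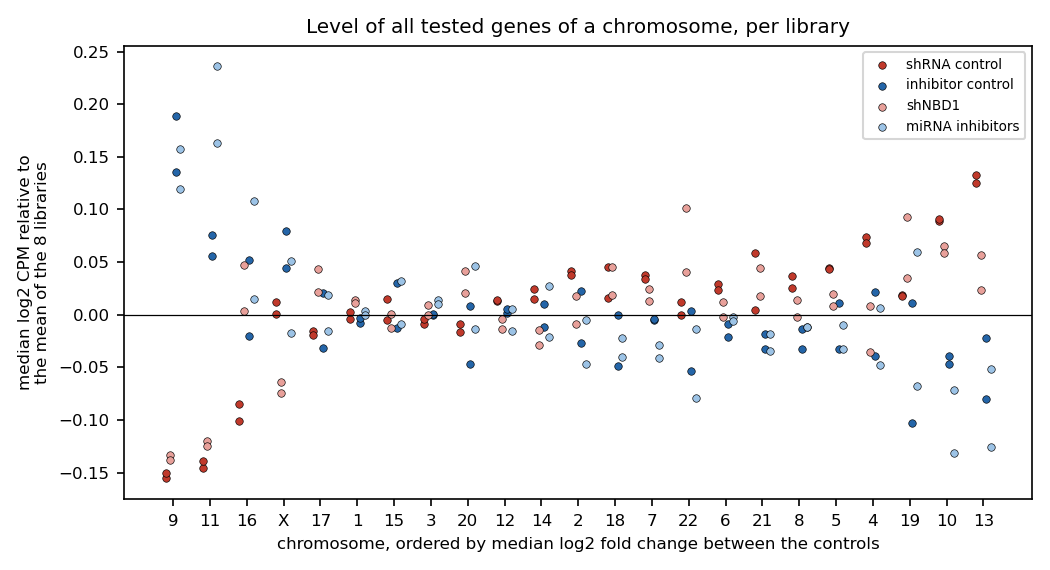
For each chromosome with at least 100 tested genes (horizontal axis, in order of the median log2 fold change between the controls) the points give, per library, the median over its genes of log2 CPM relative to the mean of the 8 libraries (vertical axis). On chromosomes 9 and 11 all libraries of the shRNA arm lie below all of the inhibitor arm.

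Among the 638 runs of 20 genes (quartiles of their medians -0.0978 and 0.0918), the lowest was a cluster of zinc-finger genes on chromosome 19 between 52397849 and 53386590 (GRCh38.p14), with 11 of 20 genes lower, none higher and a median of -0.84. ZNF160 stood at 2.66 and 2.70 against 10.5 and 9.19 CPM (-1.87 ± 0.19), and ZNF808 and ZNF320 were lower by 1.93 and 1.70. The treated libraries gave a median of -1.40 in this cluster. Another cluster of the family on the same chromosome, between 43607224 and 44305025, had the highest median of all runs (0.39, with 8 genes higher and none lower) but -0.05 in the treated libraries. Over all 438 tested ZNF genes 56 were higher and 36 lower, and without shRNA control library 1 these counts were 7 and 9, without its library 2 both were 11, and without inhibitor control library 2 the first was 33. Of the ZNF genes 21.0% were called, a smaller share than the 27.1% of all tested genes. Reads shared between such related genes make single values uncertain.

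As a second measurement, the 2 shNBD1 libraries were set against the 2 miRNA inhibitor libraries, which differ by arm and by treatment. There 4303 genes were called (32.3%), 2112 higher with shNBD1 (15.9%) and 2191 lower (16.5%), and 2473 or 2208 in all without shNBD1 library 1 or 2. Of the 1800 genes higher between the controls, 872 were called higher there as well (48.4% of these 1800 and 41.3% of the 2112 called higher between the treated libraries), and 68 were called lower. Of the 1811 lower genes 967 were called lower again (53.4% and 44.1% of the 2191), and 55 were called higher. The signs were the same for 82.3% and 85.5%. Both comparisons came from the same fit and share its filter and each gene's spread, so their calls are not independent of each other. The median log2 fold change of the higher genes was 0.43 between the controls, on which they were chosen, and 0.29 between the treated libraries, and that of the lower genes -0.57 and -0.40.

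The change of the difference between the arms was itself called for 990 genes (7.44%), 463 upward (3.48%) and 527 downward (3.96%), and for 468 of the 3611 genes that differed between the controls. GFPT1, the first enzyme of the hexosamine pathway, stood at 187 and 181 CPM in the shRNA control against 147 and 135 (0.38 ± 0.07), and at 47.4 and 42.6 with shNBD1 against 182 and 183 with the inhibitors. DCP2, the decapping enzyme, was likewise higher in the shRNA control (0.72 ± 0.08) and lower with shNBD1 (-0.50). SLIT3, a guidance ligand, and TMOD1, which caps actin filaments, moved the other way, by 1.63 and 1.66 on the log2 scale. PNP stood at 558 and 556 CPM in the shRNA control and at 275 and 270.1 with shNBD1, beside 205 and 215 CPM of the inhibitor-treated libraries. The number of such genes was 187 without shRNA control library 1, 214 without its library 2, 335 and 199 without shNBD1 library 1 and 2, and 3738 without inhibitor control library 1 and miRNA inhibitor library 2, again with all spread taken from the shRNA arm.

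**Figure D5:**
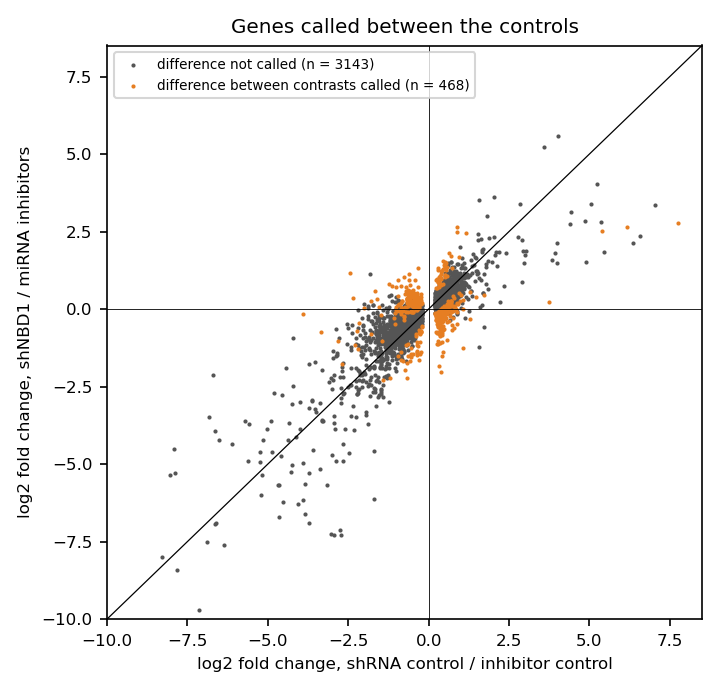
Each point is 1 of the 3611 genes called between the controls, with the log2 fold change between the controls on the horizontal axis and that of shNBD1 over miRNA inhibitors on the vertical axis; the line marks equal values. Orange points are the 468 genes whose change between the contrasts was called, and they spread toward and across 0 on the vertical axis.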

How the data were processed

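Ribosome footprints of 293T cells were counted in 8 libraries, 2 in each of 4 groups. The authors deposited raw mapped-read counts for each feature as whole numbers; per the submitters' processing notes, the tools were Bowtie and cutadapt and the build GRCh38, while for versions and for multiply matching reads the entry is: not given in the sources used here. Among the 18037 features, those with one symbol were summed to 17179 gene symbols (279 had several features; 16694 matched the RefSeq table of GRCh38.p14, which gave coordinates and promoters).

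After filterByExpr (at least 10 counts, total at least 15) and TMM scaling, counts were fitted with edgeR 4.0.16 (limma 3.58.1, R 4.3.3) by a quasi-likelihood model of the 4 groups that used the 8 libraries together (residual degrees of freedom: 4), with a common biological coefficient of variation of 0.0753. The Benjamini-Hochberg adjustment ran over 13306 genes, and calls were made at 0.05. On simulated counts (13104 genes) the fit called 10% of the genes changed 1.25-fold, 64% at 1.5-fold, 98% at 2-fold and 100% at 4-fold, and 11 of 147 calls were unchanged genes. The simulation gave a gene the same spread in all groups and changed only genes averaging at least 50 counts. In the data the replicates of the inhibitor arm differed more than those of the shRNA arm. These rates therefore need not hold for this comparison or for genes of few counts.

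The comparison, the 49 gene lists and the rule for naming genes were chosen with earlier results of these data known. The rule takes called genes whose groups do not overlap, whose higher group averages at least 50 counts: 15 of smallest p and 10 of largest fold in each direction, up to 4 called members per list by fold, and the 6 of smallest p in each direction for the change with treatment. VIM, NBD1reporter, ZNF354B, ST8SIA1, CCNA1, ATF4, ASNS, PHGDH, PSAT1, SHMT2, MTHFD2, PYCR1, KIF11, CDK1, CCNB1, PLK1, AURKB, CDC20, BIRC5, SLC1A5, MT-ND5, MT-CO1, FN1, SPARC and COL12A1 lie outside it and were named after their values were seen. Lists are described by their counts and medians, with no test of a list. The runs are 20 consecutive tested genes. Replicate numbers were not taken as pairs, because the labels state no pairing. The deviations of same-numbered libraries over 10909 genes correlated at 0.00543 between the controls. They correlated at 0.0406 and 0.0227 between the shRNA control and shNBD1 or miRNA inhibitors, and at 0.269 and 0.252 between shNBD1 and the inhibitor control or miRNA inhibitors. Within the inhibitor arm the correlation was 0.608, and whether the number marks a shared effect there was not tested. Such an effect would enter the pooled spread, and a replicate block raised the genes whose difference changed with treatment from 990 to 1868. Alternatives covered scaling, filters, DESeq2 1.42.0, a replicate block, fewer libraries and abundant or repeated features. A planned description by coding length was not run.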

Additional observations from a re-analysis of the deposited data

Results flagged for a closer look

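The difference between the arms changed with treatment, by a test of that change over all genes (edgeR, adjusted p under 0.05), for 990 genes. Values below are the log2 difference between shNBD1 and miRNA inhibitors minus that between the controls. Among the leading genes of the controls the difference was less positive in the treated libraries for PNP (-1.10), TRIM49C (-4.99), TRIM49B (-2.86), TRIM49 (-3.52, like TRIM49C and TRIM49B a fitted value that depends on the prior count, since the inhibitor control held few counts), RBBP6 (-0.55), EIF3J (-0.73) and CKS2 (-0.43). It was less negative for CRABP2 (0.92), RPL41 (0.41), COL5A1 (0.99) and COL5A2 (0.88), and more negative for SOX11 (-0.87). The genes of smallest p for the change itself were TMOD1 (1.66), KIF5C (1.22), PLAT (1.03), SLIT3 (1.63), OLFML2A (1.79) and GJA1 (0.96) upward, and GFPT1 (-2.40), CAPZA1 (-1.35), TMEM70 (-1.39), ENPP4 (-1.95) and AMMECR1 (-2.15), beside PNP, downward.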

How the results depend on the processing

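No called value that was recomputed changed sign. Without each library in turn the genes higher numbered 509 to 1595 and lower 568 to 1663, those called between the treated libraries 2208 to 3898, and those whose difference changed with treatment 187 to 1135; the lowest of each came without a library of the shRNA arm, and the cause was not tested. Chosen after seeing the data, the fit without inhibitor control library 1 and miRNA inhibitor library 2 gave 2823 higher, 2850 lower and 3738 changed, with all spread taken from the shRNA arm, so it is no check of stability. Where a group kept 1 library, that library was assumed to vary like the other groups. DESeq2 called 1233 higher and 1156 lower. A replicate block called 2475 higher, 2334 lower and 1868 changed, and numbers were not taken as pairs. Upper-quartile scaling moved the median of all genes to -0.04 and the share of calls that were higher from 49.8% to 40.3% (1422 higher, 2110 lower). Of 190 further named genes 107 and 116 stayed called without shRNA control library 1 and 2, 169 and 155 without inhibitor control library 1 and 2. Of list counts under alternatives 1136 stayed within 1.5 times and 334 did not. Depth limits genes of few counts, whose folds are ratios with wide intervals. The description by coding length was not run.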
